A study of Mus musculus with 8 samples.

Results

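Solitary distal H3K27ac peaks are H3K27ac peaks of newborn mouse epidermis that carry neither H3K4me3 nor MOF and stand apart from other H3K27ac peaks lacking H3K4me3. They were selected on the peak lists themselves. A member lies on chromosomes 1 to 19, overlaps no H3K4me3 peak and no MOF peak, and has no other H3K27ac peak lacking H3K4me3 within 12500 bp, measured edge to edge. Of 30736 H3K27ac peaks in the list, 30148 lay on these chromosomes and 6327 met the rule, which is 21.0% (95% exact binomial interval 20.5 to 21.5%). Among the 11849 peaks without H3K4me3 and MOF, the solitary peaks made up 53.4%, and the other 5522, with a neighbour inside that distance, are referred to as clustered. A further 805 peaks overlapped MOF but not H3K4me3, and 17494 overlapped H3K4me3.

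The study profiled chromatin in the total epidermis of newborn mice (wildtype, P0.5, that is, postnatal day 0.5), with 8 samples in all and no mutant or treated sample among them. Back skin epidermis was separated from dermis and dissociated, so all epidermal cell types are mixed. H3K27ac, H3K4me3 and the transcription factor Rfx2 were profiled by Cut&Run, a method that releases antibody-bound chromatin with a tethered nuclease, and MOF, the acetyltransferase of histone H4 lysine 16, by ChIPseq. The H3K27ac list came from the sample labelled as a repeat, and each mark was represented by 1 list, so no value below has a replicate check. No difference was tested for that reason. Intervals are exact at 95% for shares and from ranked values for medians, and they cover counting over peaks only.

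Histone H3 acetylated at lysine 27 marks active promoters and active enhancers, whereas H3 trimethylated at lysine 4 marks active promoters. A peak with the former and without the latter is therefore commonly read as a candidate enhancer, although the marks alone do not show that a sequence drives transcription. In epidermis, enhancers of keratinocyte genes are known to be bound by p63, AP-1 (dimers of FOS and JUN proteins), GRHL, KLF and AP-2 factors. Genes of cell identity often have several such elements, either packed into dense clusters or spread singly over a wide region.

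The sequences below are examples with above-median H3K27ac, and AP-1 letters are more frequent among them than among members in general because most were picked for these letters. Each is the mm10 plus strand over the summit and 100 bases on either side of it, and capitals mark the AP-1 letters TGANTCA, where N is any base. The members near Zfp395 and Arhgef4 have the highest H3K27ac of all members and hold no AP-1 letters in this window, while the member near Kcnv2 is the only one of the 15 members with the highest H3K27ac that holds them.
Zfp395 (chr14:65316418-65316618, intron of Fbxo16): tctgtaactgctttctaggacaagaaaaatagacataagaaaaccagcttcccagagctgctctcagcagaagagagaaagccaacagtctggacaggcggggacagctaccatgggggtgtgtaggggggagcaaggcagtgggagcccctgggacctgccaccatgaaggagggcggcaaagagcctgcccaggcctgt
Arhgef4 (chr1:34657496-34657696, intergenic): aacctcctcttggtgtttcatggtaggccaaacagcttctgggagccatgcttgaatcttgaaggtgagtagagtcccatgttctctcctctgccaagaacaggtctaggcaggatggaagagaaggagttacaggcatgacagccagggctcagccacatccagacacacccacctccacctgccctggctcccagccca
Kcnv2 (chr19:27351608-27351808, intron of Gm35554): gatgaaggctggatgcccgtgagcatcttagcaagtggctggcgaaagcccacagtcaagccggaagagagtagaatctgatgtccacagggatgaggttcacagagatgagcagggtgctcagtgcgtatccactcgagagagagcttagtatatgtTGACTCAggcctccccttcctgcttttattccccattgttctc
The next 3 were chosen after their values were seen, as those with the highest H3K27ac among the members nearest to genes of the epidermal lists that hold AP-1 letters at the summit.
Krt5 (chr15:101752503-101752703, intergenic): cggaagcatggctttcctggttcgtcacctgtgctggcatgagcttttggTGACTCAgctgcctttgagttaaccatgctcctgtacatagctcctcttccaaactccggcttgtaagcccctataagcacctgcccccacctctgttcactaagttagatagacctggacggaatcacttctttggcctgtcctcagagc
Hes1 (chr16:30034157-30034357, intron of 9030404E10Rik): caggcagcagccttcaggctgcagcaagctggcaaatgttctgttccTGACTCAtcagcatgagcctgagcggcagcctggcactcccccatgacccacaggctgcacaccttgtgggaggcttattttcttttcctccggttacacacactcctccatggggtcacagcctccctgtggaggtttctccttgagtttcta
Tgm1 (chr14:55714998-55715198, intergenic): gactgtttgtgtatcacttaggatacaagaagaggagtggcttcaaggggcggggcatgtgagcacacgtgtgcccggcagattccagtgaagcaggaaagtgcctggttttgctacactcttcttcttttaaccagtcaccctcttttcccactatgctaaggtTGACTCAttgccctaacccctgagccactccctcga
All 4 matches read TGACTCA on the plus strand. They are centred 61 and 68 bases after the summit for Kcnv2 and Tgm1, and 47 and 50 bases before it for Krt5 and Hes1, so none sits on the summit itself.

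The name distal was checked against the RefSeq annotation of mm10, using curated transcripts only. The median distance from a solitary summit to a transcription start site was 24971 bp (interval 23856 to 25952 bp), against 25884 bp for clustered peaks and 411 bp for H3K27ac peaks with H3K4me3. A start site lay within 1 kb of the summit for 3.67% of solitary peaks (232 of 6327), 2.86% of clustered peaks and 61.2% of peaks with H3K4me3. Most members were thus far from promoters, but not all. An H3K4me3 peak lay within 1 kb of 723 members (11.4%) without touching them, and a MOF peak within 1 kb of 197 (3.11%).

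Nearly all solitary peaks were intronic or intergenic. The centre lay in an intron for 49.0% and between genes for 44.4%, and these shares were 48.8% and 46.0% for clustered peaks. Promoters (1 kb upstream to 100 bp downstream of a start site) held 2.32%, coding exons 2.23% and other exons 2.07%. Curated transcripts held the centre of 54.4% of members (53.2 to 55.7%) and cover 40.4% of the bases of chromosomes 1 to 19. Of 2946 members inside introns of protein-coding genes, 2325 (78.9%) had the host gene's own start site as the nearest protein-coding one. The host was therefore also the nearest gene for most intronic members.

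The promoters nearest to solitary peaks were mostly marked. The nearest protein-coding gene had H3K4me3 at its promoter for 80.3% of members (79.3 to 81.2%), close to the 80.0% of clustered peaks, and 61.6% of the 20021 protein-coding genes on chromosomes 1 to 19 had it. H3K27ac was present at that promoter for 71.6% of members, against 10220 of these 20021 genes, and MOF for 33.2% against 27.6%. Members near genes count a gene more than once, so these shares weight genes with many members.

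Solitary did not mean without any neighbour, because the rule ignores H3K27ac peaks that carry H3K4me3. Such a peak lay within 12500 bp of 36.7% of members (2325 of 6327), and within the same distance of 42.6% of clustered peaks. The remaining 4002 members (63.3%) had no H3K27ac peak of any kind within 12500 bp, and 466 (7.37%) had none within 100 kb. The median gap to the nearest H3K27ac peak of any kind was 16511 bp, to the nearest one lacking H3K4me3 39056 bp, to H3K4me3 15314 bp and to MOF 27213 bp. The plot of gaps shows that peaks pass the limit without a break in the distribution.

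**Figure D1:**
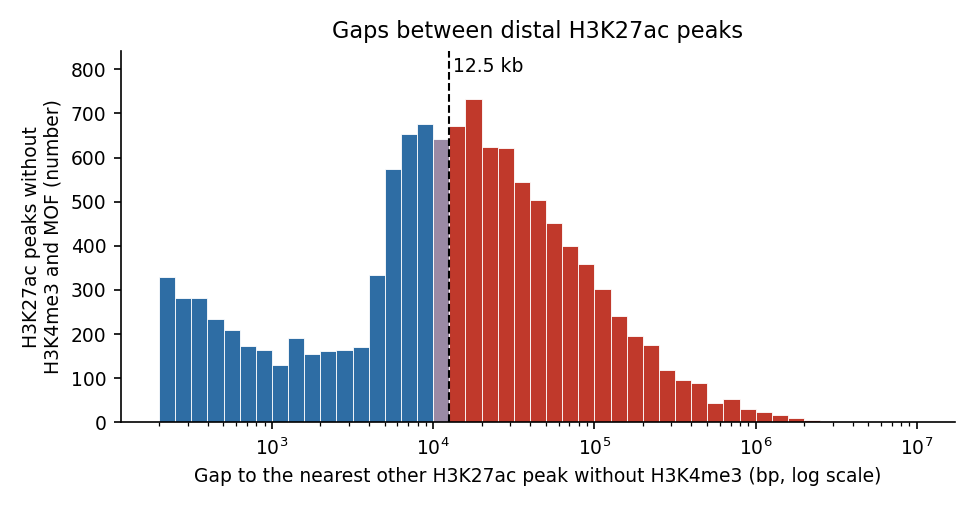
Number of H3K27ac peaks without H3K4me3 and MOF (vertical axis) by the gap to the nearest other H3K27ac peak lacking H3K4me3 (horizontal axis, bp, log scale); blue bars are clustered peaks, red bars solitary peaks, and the mauve bar straddles the dashed limit of 12500 bp. The counts on either side of the limit are alike (642 peaks in the bar across it and 672 in the next), and 9.67% of these peaks have a gap of 10 to 15 kb.

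At the limit itself the choice of members turned on few bases. The 3 members with the smallest gaps were 2 peaks in an intron of Fnbp1, 12509 bp from each other, and a peak upstream of Mpdz with a gap of 12544 bp. Their fold enrichments were 2.95, 3.57 and 4.84. The 3 peaks just excluded were near Ublcp1, Rnf145 and Tmem178, all with a gap of 12499 bp, and their fold enrichments were 8.83, 5.56 and 6.10. These values are given as a description of the limit only.

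H3K27ac at solitary peaks was modest. Fold enrichment here is the peak caller's ratio of the signal at the summit to the background it estimated, so it is a ratio within the library and not an absolute level. Over the 6327 members it ranged from 1.89 to 12.9 with a median of 4.44 (interval 4.40 to 4.47). The median was 4.11 for clustered peaks, 4.50 for peaks with MOF and no H3K4me3, and 5.64 for peaks with H3K4me3. Solitary peaks thus stood above clustered ones and below promoter-marked ones on this scale.

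The caller's q-value gave another order. The median −log10 q was 4.72 for solitary, 5.20 for clustered, 6.05 for MOF-positive and 11.4 for H3K4me3-positive peaks. Solitary peaks were therefore the least certain of these classes by q although not the lowest by fold enrichment. They were also narrow, with a median width of 365 bp (range 199 to 1790 bp), the same as clustered peaks and against 721 bp for peaks with H3K4me3.

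Some of the ratios fell on a common step. In 941 members (14.9%) the fold enrichment was a whole multiple of a step of 0.463, within 0.0003 of a step, as a single background shared by these members would give. If the caller added 1 to the pileup before dividing, its usual setting, which the sources used here do not state, these multiples would correspond to 6 to 18 fragments at the summit, with a median of 8. For the other members the number of fragments cannot be read from the list. The share on the common step was 0.354% (4 of 1130) where another H3K27ac peak of any kind lay within 5 kb, 12.9% at 5 to 25 kb and 25.1% (549 of 2183) beyond 25 kb. Median fold enrichment in these classes was 3.73, 4.59 and 4.62. Fold enrichment was thus lowest in the class with the fewest members on the step, and part of the gap between solitary and clustered peaks, of which 2.84% were on the step, cannot be told apart from this feature of the ratio.

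The members with the highest H3K27ac were near genes of varied function. The highest, with a fold enrichment of 12.9, lay in an intron of Fbxo16, 42158 bp upstream of Zfp395, a zinc finger gene, and 9423 bp from the nearest other H3K27ac peak. The next, at 11.7, was an intergenic peak 20586 bp upstream of Arhgef4, a guanine nucleotide exchange factor gene. Peaks near Dele1, Smad7 and Zfp516 followed with 11.1, 10.9 and 10.7. Smad7 is the inhibitory Smad of TGF-β signalling, and its peak was 44813 bp upstream of the start site. A peak 12670 bp upstream of Phc3, a Polycomb gene, had 10.2.

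Below these stood Kcnv2, a potassium channel subunit gene (9.97), Fcamr, an immunoglobulin receptor gene (9.96), Hagh, a glyoxalase gene (9.85), H2al2a (9.79), Arhgef28 (9.67) and Ccr7, a chemokine receptor gene (9.52). Gata3, which encodes a transcription factor of epidermal and hair follicle differentiation, followed with 9.52 at a peak 325077 bp downstream of its start site. Zdhhc19, a palmitoyltransferase gene, had 9.46, and Dlx2, a homeobox gene, 9.33. The gene named here is the nearest protein-coding one and no list here links a peak to a target. Fcamr, Kcnv2, H2al2a, Ccr7 and Zdhhc19 had no H3K4me3 at their promoters, unlike the other 10 of the 15.

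Width and isolation selected other peaks. The widest member, 1790 bp, was an intergenic peak 40422 bp upstream of Sp3, a transcription factor gene of the SP family, with a fold enrichment of 4.96. It was followed by peaks near Paqr5, a membrane progestin receptor gene (1724 bp, intronic), Ctsh, the gene of cathepsin H (1593 bp), Ccdc121 (1557 bp) and Prkd2, a protein kinase gene (1540 bp, in a coding exon). The farthest from any other H3K27ac peak was 2165121 bp from it, downstream of Slitrk1, with a fold enrichment of 6.13. Members near Pik3c3, Elavl2, Dsel and Olfr433 came next, with gaps of 1745143, 1698717, 1507533 and 1359331 bp. The Elavl2 member was masked as repeat over 100% of its length and was 204 bp wide. Members made mostly of repeat were otherwise rare, although only 29.7% had no repeat-masked base at all. Over 50% of the length was repeat-masked in 1.87% of members, and over 50% of the 31-base words occurred elsewhere in the genome in 14 members (0.221%).

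Solitary peaks close to H3K4me3 differed from those far away. The 723 members within 1 kb of an H3K4me3 peak had a median fold enrichment of 3.90 and a median width of 329 bp. The 2108 members at 1 kb to 12500 bp had 4.28, the 2802 at 12500 bp to 100 kb had 4.62 and the 694 beyond 100 kb had 4.63. Enrichment thus rose with distance and levelled off beyond 12500 bp, and whether the background term of the ratio differed between these classes was not tested. The share of intergenic centres was 41.1%, 41.8%, 43.3% and 60.4% in these classes, and it stood apart only beyond 100 kb. The nearest protein-coding gene had H3K4me3 for 83.1%, 84.2%, 79.5% and 68.4%. Among all members, 44.7% had an H3K4me3 peak within 12500 bp, against 50.4% of clustered peaks, and 11.0% against 7.19% had none within 100 kb. AP-1 letters lay within 250 bp of the summit in 24.3% (21.3 to 27.6%) of the members within 1 kb. In the farther classes the share was 30.6%, 31.7% and 33.3%, with intervals that overlap one another but not that of the first class. Within 100 bp the share was 9.41%, 11.9%, 12.6% and 11.1%, with intervals that overlap.

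**Figure D2:**
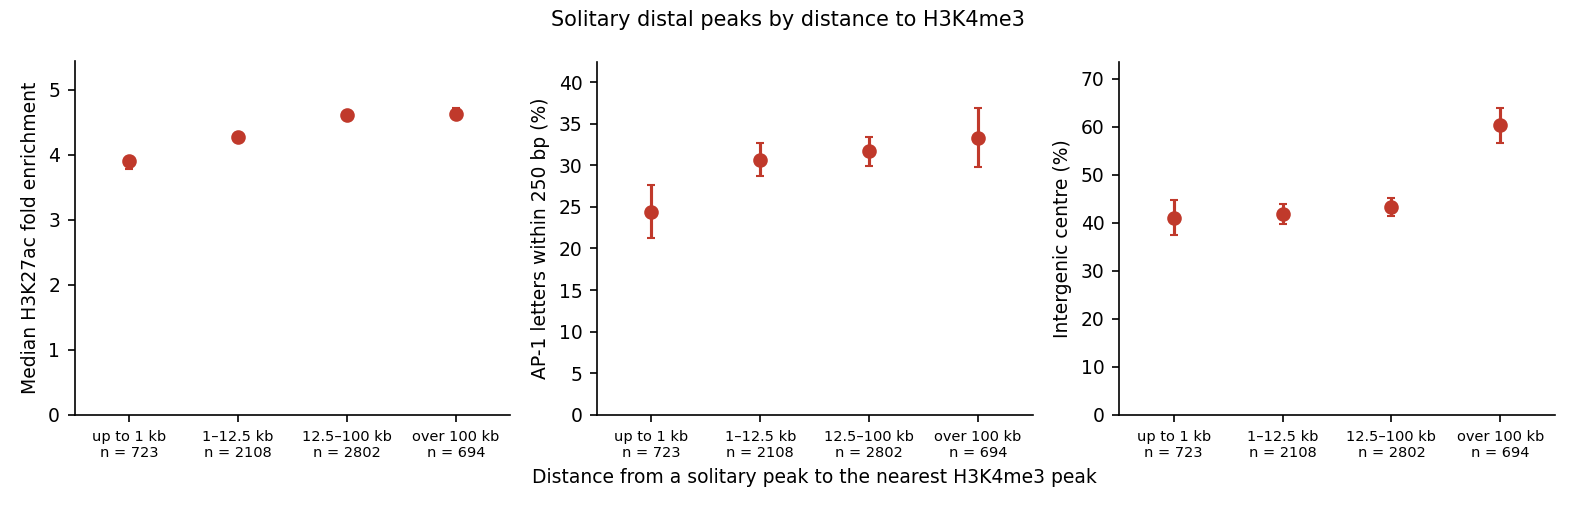
Median H3K27ac fold enrichment, share of members with AP-1 letters within 250 bp of the summit and share with an intergenic centre (vertical axes of the panels) for solitary peaks in 4 classes of distance to the nearest H3K4me3 peak; points are medians or percentages, bars are 95% intervals. Enrichment goes from 3.90 to 4.63 and the intergenic share reaches 60.4% in the last class. AP-1 within 250 bp goes from 24.3% in the first class to 33.3% in the last, and the bars of all classes but the first overlap one another.

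Base composition set solitary peaks apart from promoter-type peaks. Median GC content within 100 bp of the summit was 50.7%, against 52.2% for clustered peaks and 61.2% for peaks with H3K4me3. CpG dinucleotides occurred at 0.194 of the number expected from base content, against 0.193 and 0.618. The GC intervals of solitary and clustered peaks (50.7 to 51.2% and 51.7 to 52.2%) did not overlap while those of the CpG ratio did, and neither class had the CpG-rich composition of the H3K4me3-positive class.

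The letters of 17 motifs were searched on both strands within 100 bp of each summit, and in windows of the same length moved 5 kb downstream. A match is a match of letters, not a bound site. AP-1 letters (TGANTCA) were found in 749 solitary peaks, 11.8% (11.1 to 12.7%), and in 6.43% of the moved windows, a ratio of 1.84. They were found in 11.3% of clustered peaks, 5.17% of peaks with H3K4me3, 7.82% of all H3K27ac peaks on these chromosomes and 5.39% of 32851 RefSeq promoters over windows of the same length. AP-1 letters were thus more frequent at solitary summits than in any of these backgrounds other than the clustered peaks, whose interval (10.4 to 12.1%) overlaps.

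In solitary peaks the excess over moved windows lay in matches with C or G as the middle base. Matches with C or G in the middle, the form that FOS and JUN dimers are known to prefer, were found in 9.18% of solitary summits (8.48 to 9.92%) and 3.65% of moved windows. Matches with A or T in the middle were found in 2.92% and 2.89%. The latter shares, over the same flanking letters, differed by less than their counting intervals. Clustered peaks differed in this. Their matches with A or T were in 3.10% of summits (2.66 to 3.59%) and 2.23% of moved windows (1.85 to 2.65%), without overlap. Those with C or G were in 8.57% and 3.82%.

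AP-1 letters were densest beside the summit and not on it. Per 1000 solitary peaks and 100 bp of distance there were 131 matches at 0 to 100 bp, 177 at 100 to 200 bp, 87.0 at 200 to 500 bp and 65.1 at 500 to 1000 bp, adding both sides. Clustered peaks had 128, 158, 84.7 and 71.9, and peaks with H3K4me3 had 56.4, 67.6, 48.8 and 53.1. The maximum lay between 100 and 200 bp in all of these classes, and also in peaks with MOF and no H3K4me3 (125, 163, 83.6 and 63.4). A maximum at this distance was therefore not particular to distal peaks, although their densities were higher than those of peaks with H3K4me3. At 500 to 1000 bp the solitary and clustered intervals (62.3 to 67.9 and 68.8 to 75.1) did not overlap. Within 250 bp of the summit, AP-1 letters were present in 30.7% of solitary peaks (29.5 to 31.8%), 28.3% of clustered peaks (27.1 to 29.5%) and 13.2% of peaks with H3K4me3. From the 633 members with the lowest to the 633 with the highest fold enrichment this share went from 26.5% to 37.4%, and that within 100 bp from 9.95% (7.73 to 12.6%) to 14.4% (11.7 to 17.4%), whose intervals overlap, while median width went from 310 to 513 bp.

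**Figure D3:**
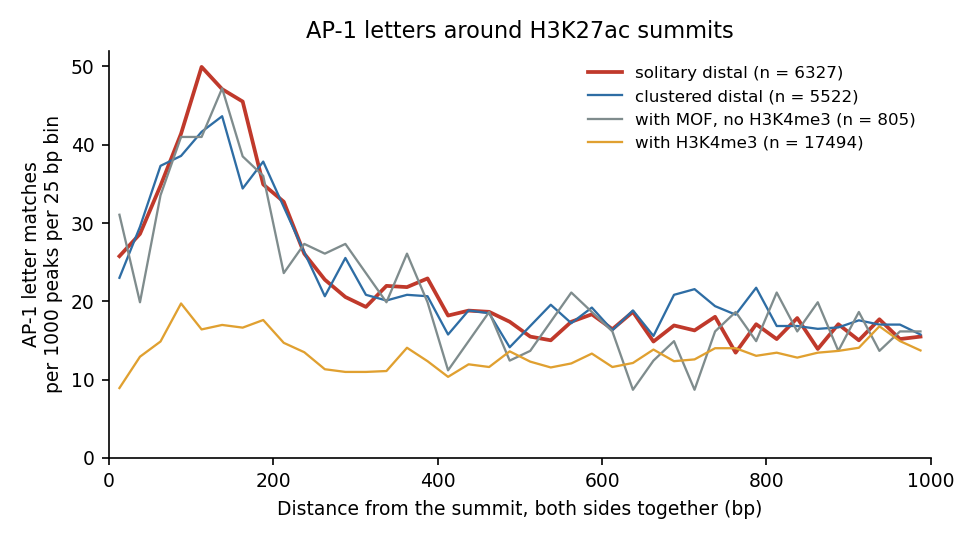
AP-1 letter matches per 1000 peaks in bins of 25 bp (vertical axis) by distance from the H3K27ac summit with both sides added (horizontal axis, bp), for solitary, clustered, MOF-positive and H3K4me3-positive peaks. The solitary peaks (red) rise from 25.8 in the bin at the summit to a maximum between 100 and 200 bp and then fall. Peaks with H3K4me3 stay low throughout, with more matches at 100 to 200 bp than nearer the summit.

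Among the other epidermal motifs, GRHL, KLF and TEAD letters were also more frequent at solitary summits than in moved windows. GRHL letters (AACCNGTT), of the grainyhead-like factors of barrier formation, were in 139 solitary summits and 76 moved windows, a ratio of 1.83, and as for AP-1 their density was highest at 100 to 200 bp. KLF letters (GGGNGTGG) were in 9.82% against 5.66%, with a ratio of 1.73. TEAD letters (GGAATG), of the factors that pair with YAP, were in 14.2% against 11.0%. The p63 letters, a pair of spaced half-sites, were in 1.20% against 0.838%, and these intervals overlap (0.948 to 1.50% and 0.628 to 1.09%). Beside other H3K27ac summits the picture differed. KLF letters were in 10.8% of clustered peaks, with overlap of the solitary interval, and in 13.2% of peaks with H3K4me3, without overlap. TEAD and GRHL letters were in 14.1% and 1.88% of clustered peaks, with overlap, and in 9.23% and 1.20% of peaks with H3K4me3.

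Other motifs had overlapping intervals or were rarer at the summit. RUNX letters (TGTGGT) were in 15.3% against 15.4%, C/EBP letters (TTGCNNAA) in 8.04% against 8.52%, and LEF1/TCF letters (ATCAAAG) in 3.41% against 3.13%, and the intervals of each overlap. GATA letters (AGATAA) were in 8.22% against 11.1% and IRF letters in 1.83% against 2.84%, without overlap, and SOX letters (AACAATG) in 2.61% against 3.37%, with overlap. The CTCF letters of insulator sites were in 1.38% against 1.58%. NFI letters were found in 4 solitary summits and in 0 of 6327 moved windows, which is too few to compare.

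Promoter-type letters were scarcer than at summits with H3K4me3, but the GC box, the ETS letters and the E-box were more frequent than in moved windows, with ratios of 1.96 and 1.41 for the GC box and ETS and 98 against 49 windows for the E-box. The GC box of SP factors (GGGCGG) was in 6.23% of solitary summits, 3.18% of moved windows and 36.2% of summits with H3K4me3, and the ETS letters CCGGAA in 2.75%, 1.94% and 12.1%. NRF1 letters were in 0.0632% of solitary summits against 2.90% with H3K4me3. The E-box TCACGTG, recognised by MITF-type factors, was in 1.55% of solitary summits against 0.774% of moved windows and in 2.48% with H3K4me3.

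**Figure D4:**
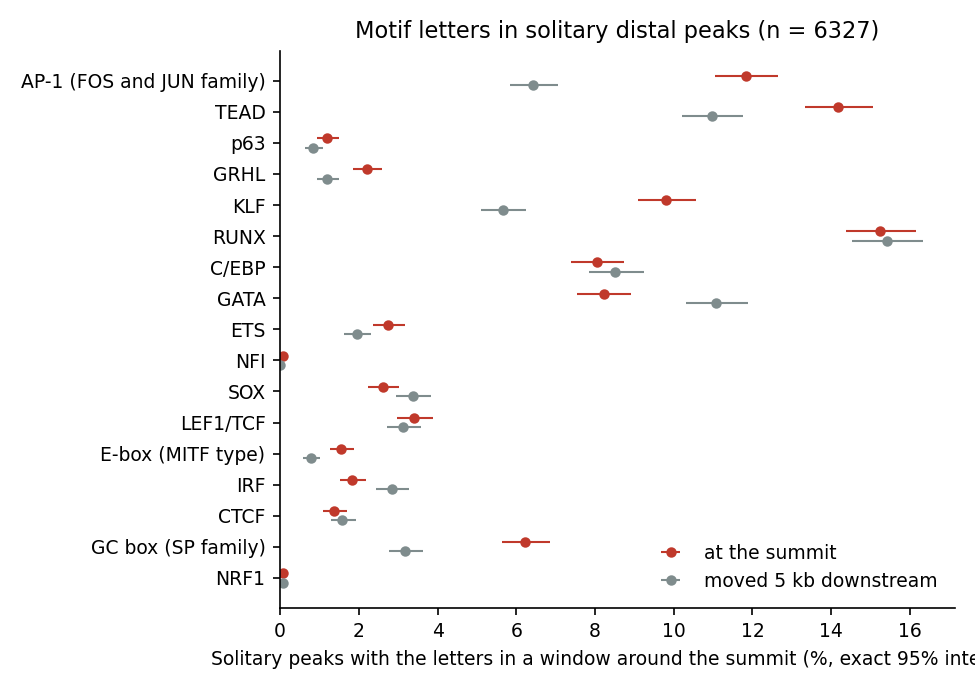
Share of the 6327 solitary peaks with the letters of each of 17 motifs (horizontal axis, %) within 100 bp of the summit (red) and in windows moved 5 kb downstream (grey); bars are exact 95% intervals. AP-1, TEAD, GRHL, KLF, GC box, ETS and E-box letters lie to the right at the summit without overlap of the bars, and GATA and IRF letters to the left.

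The 10 lists of genes were then read against the peaks, and a gene was counted when a solitary summit lay within 50 kb of any of its start sites. Of 20021 protein-coding genes on these chromosomes, 31.4% had such a peak, and 38.4% of the 12327 with H3K4me3 at the promoter did. For clustered peaks the same shares were 13.4% and 16.2%. The lists were chosen with earlier results of these data known, their members are not independent draws, and no list was tested. A fold enrichment given for a listed gene is that of the solitary peak nearest to it, and a gene can have a stronger one farther away.

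Of the 10 lists, transcription factors of the epidermal lineage had the highest share with solitary peaks. A solitary peak lay within 50 kb of 26 of 33 genes, 78.8% (61.1 to 91.0%), and a clustered peak within 50 kb of 17, 51.5% (33.5 to 69.2%), so the intervals overlap. For 12 genes there was a solitary peak only, among them Klf5, Ovol1, Prdm1, Runx1 and Tead1. This share of 36.4% (20.4 to 54.9%) was near that of protein-coding genes with H3K4me3 at the promoter (30.9%), which 30 of the 33 had. Of all protein-coding genes 25.3% had a solitary peak only, inside the same interval. The 26 genes were reached by 26 different peaks with a median fold enrichment of 3.77, so they were not among the strongest members as a group. Higher values were found near Hes1, the Notch target (7.17, 31100 bp upstream), Grhl3, required for the skin barrier (6.14, 24080 bp upstream), and Tfap2c, an AP-2 factor (5.14, 9313 bp downstream). Trp63, which encodes p63, had a solitary peak 9584 bp from a start site (2.82) and a clustered one at 9188 bp. Klf4, Ovol2, Maf and Dlx5 had neither kind within 50 kb.

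Keratins and other structural genes had clustered peaks nearby more often than solitary ones, with intervals that just meet. A solitary peak lay near 15 of 34 genes, 44.1% (27.2 to 62.1%), and a clustered peak near 27, 79.4% (62.1 to 91.3%). Many of these genes sit side by side in the keratin and epidermal differentiation clusters and can share peaks, although the 15 genes had 15 different nearest solitary peaks. The highest of the nearest peaks of the list lay 39698 bp upstream of Krt5, the basal keratin gene, with a fold enrichment of 7.48, and the nearest protein-coding gene was Krt71. A member 44761 bp upstream of Krt17 had 6.69, and here Eif1 was nearest. Krt14, Krt1 and Lor, the partners and successors of Krt5 during differentiation, had a clustered peak within 50 kb (at 1305, 3930 and 48197 bp) and no solitary one. Other differentiation genes of the list went the other way. Krt10, Krt2 and Ivl had both kinds, with the nearest solitary peak at 40343, 48686 and 6033 bp.

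Other members named from this list lay near genes of the cornified envelope and of cell shedding, while Ppl, Sprr1b and Rptn of the same list had none within 50 kb. Tgm1, the transglutaminase that cross-links the envelope, had one 1606 bp upstream with 5.12, and it was 860 bp from an H3K4me3 peak. Evpl, the gene of envoplakin, had one 9469 bp upstream with 5.88, within an intron of Srp68. Flg2, of the filaggrin family, had one 33920 bp upstream with 5.86, and Cdsn, the gene of corneodesmosin, one 32409 bp downstream with 5.19, and in both cases another gene was nearer. Tgm1, Flg2 and Cdsn had no clustered peak within 50 kb.

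Genes of the signalling, stress response and adhesion lists had both kinds of peak. Of 34 growth factor and signalling genes, 21 (61.8%) had a solitary and 17 (50%) a clustered peak. Wnt4 (6.66), Edar, the ectodysplasin receptor of hair placodes (6.45), Hbegf, a ligand of the EGF receptor (5.77), and Notch2 (5.36) had the highest values at their nearest solitary peaks. Of 15 AP-1 and stress response genes, 11 (73.3%) had a solitary peak and 10 (66.7%) a clustered one. Jun had a member 10599 bp upstream (4.96), Egr1 one 5099 bp downstream (4.81) and Dusp1 one 5440 bp downstream (4.51), whereas Fos and Junb had only clustered ones. Fosl2, Junb and Jund stand in this list and in that of the epidermal factors. Of 29 adhesion and basement membrane genes, 15 (51.7%) had a solitary and 17 (58.6%) a clustered peak.

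The shares moved in several lists when genes were counted as the nearest protein-coding gene of a member at any distance, a count that grows with the space around a gene. Of 19 hair follicle factors, 8 (42.1%) had a solitary peak within 50 kb and 14 (73.7%) were nearest to a member. This second share was highest for epidermal lineage factors, at 81.8%. It was 73.5% for signalling genes, 60% for AP-1 and stress response genes and 55.2% for adhesion and basement membrane genes. Keratins and other structural genes had 23.5%, melanocyte genes 23.1%, and dermal and endothelial genes 22.2%. Liver, neuron and muscle genes had 16.7% and immune genes 13.3%. The share was 20.7% for all protein-coding genes and 26.1% for those with H3K4me3 at the promoter, which 16 of the 19 hair follicle factors had. Among the peaks nearest to hair follicle factors that of Tcf7l2, a Wnt effector, was highest at 5.98. Of 13 melanocyte genes, 6 (46.2%) had a solitary peak within 50 kb and 2 had a clustered one. The member of Mitf (4.09) lay in its own intron, whereas those counted for Pmel (5.14) and Slc45a2 (5.14) lay in introns of Dgka and Amacr, which were nearer. Among 15 immune genes there were 4 (26.7%), among 18 dermal and endothelial genes 3 (16.7%), and among 24 liver, neuron and muscle genes 5 (20.8%). Most genes of these 3 lists had no H3K4me3 at the promoter (1, 5 and 7 had it), and of all protein-coding genes without it 20.2% had a solitary peak within 50 kb. Cd74, an antigen presentation gene, had a member with 6.06, Csf1r, a macrophage receptor gene, one with 4.81 and Cd3e, a T cell gene, one with 4.28, of which the Cd74 and Cd3e members lay 583 and 109 bp from H3K4me3 peaks. Hmgxb3 was nearer to the member of Csf1r and Mpzl2 to that of Cd3e. Des, a muscle gene, had one with 6.04 to which Dnpep was nearer, Tek, an endothelial receptor gene, one with 4.63 and Dcn, the gene of decorin, one with 3.24. Myh1, a muscle myosin gene, had one with 6.65 in its own intron. The tissue was total epidermis, in which melanocytes and immune cells are known to reside, and which cells carried these peaks was not tested.

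**Figure D5:**
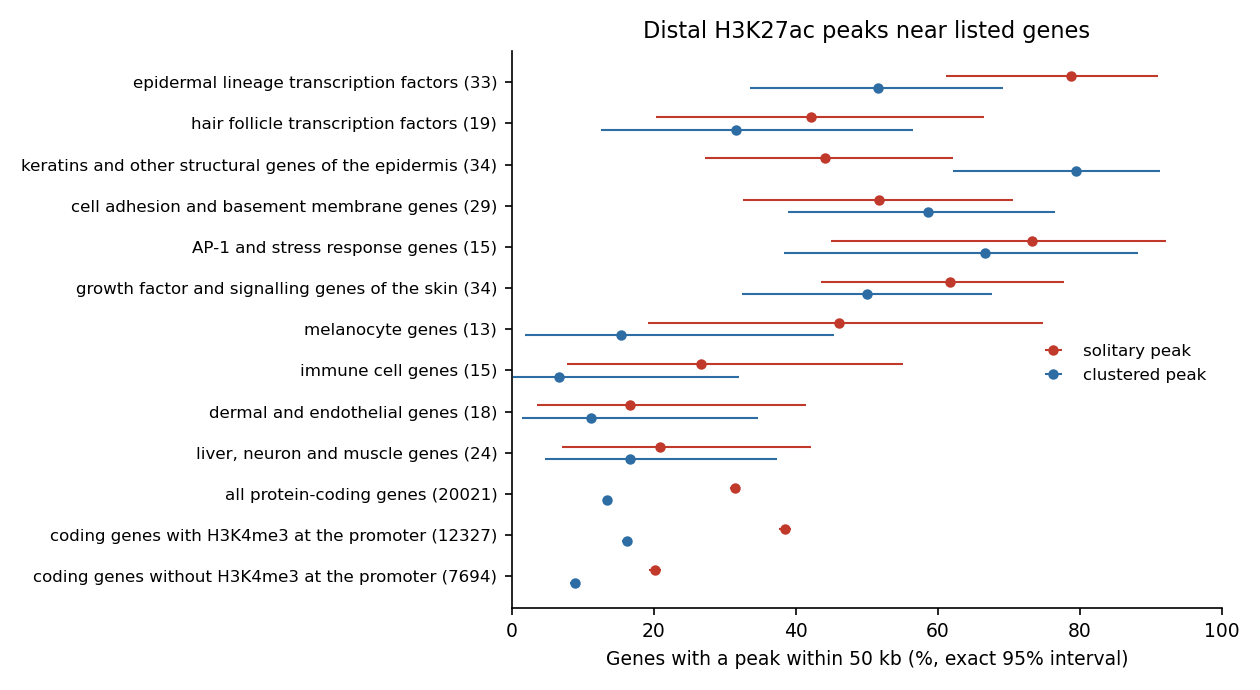
Share of the genes of each list (horizontal axis, %) with a solitary (red) or clustered (blue) H3K27ac summit within 50 kb of a start site, with exact 95% intervals; the number of genes is in brackets and the last 3 rows are all protein-coding genes, those with H3K4me3 at the promoter and those without. Epidermal factors have 78.8% solitary and 51.5% clustered, structural genes 44.1% and 79.4%.

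Solitary peaks were also counted by their nearest protein-coding gene. The 6327 members had 4135 nearest genes, of which 2927 had 1 member, 122 had 5 or more, and these 122 held 744 members. Of the 122 genes, 106 had H3K4me3 at the promoter. Genes with many members also had wide territories, that is, the stretch of chromosome closer to them than to another protein-coding gene, with a median of 0.548 Mb for the 122 genes against 0.0771 Mb for genes with 1 member. Counts are therefore given with the length of the territory, and they were ranked after the values were seen. The mean over chromosomes 1 to 19 was 2.57 members per Mb. It includes stretches without a member and is a low reference for genes picked for theirs. A gene with 1 member in a territory of 0.0771 Mb also lies above it.

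Gata3 had the most, with 15 members over 1.33 Mb, or 11.3 per Mb. They lay between 179 and 1097199 bp from the start site, and 14 of them were downstream at 146358 bp or more. Fold enrichment ranged from 2.49, at the promoter-proximal member, to 9.52, with a median of 4.86. Next to the highest stood members 773529 bp (7.00), 284412 bp (6.38) and 176925 bp (6.20) from the start site, and AP-1 letters lay within 250 bp of 4 of the 15 summits. The same territory held 12 clustered peaks.

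Other genes followed. Efnb2, an ephrin ligand gene, had 11 members over 1.79 Mb (6.14 per Mb), with fold enrichment from 3.71 to 5.77 and AP-1 letters within 250 bp of 5. Foxp1, a forkhead factor gene, had 10 members over 0.908 Mb (11.0 per Mb), 8 of them inside the gene and 1 with AP-1 letters. Pard3, a cell polarity gene, had 10 members, 9 of them inside the gene. Mpdz and Sox4 had 10 each, and Bcl11b, Irs2, Pik3r1, Slc35b3 and Slc4a3 had 9 each. Adgrl2, Bnc2, Gja1, Klf3, Nfib, Prickle1, Rgma and Zmiz1 had 8 each. Among these genes Klf3, a Krüppel-like factor gene, had the densest set at 22.8 per Mb and Adgrl2, a receptor gene, the sparsest at 3.49 per Mb. Irs2, an insulin receptor substrate gene, had 15.5 per Mb and no clustered peak, while Bcl11b had 16 clustered peaks.

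Some members coincided with elements already annotated, at a share close to that of other H3K27ac peaks. Of 1006 RefSeq enhancers on these chromosomes, 617 come from the VISTA set of elements tested in transgenic embryos, and 35 solitary and 27 clustered peaks overlapped a VISTA element. The 37 members that overlapped any RefSeq enhancer were 0.585% (0.412 to 0.805%), against 0.543% of clustered peaks and 0.514% of peaks with H3K4me3. They included a peak near Efnb2 (5.75), 172505 bp from the gene and 1165 bp wide, at the element mm985, and a peak near Bmp2 (4.63) at mBmp2-h-ER. The strongest lay at mm1103, near Sec61g, with 8.82. Embryonic elements were tested at another age and mostly in other tissues, so an overlap says only that the coordinates coincide.

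Rfx2, a factor of ciliary genes, overlapped mostly H3K27ac peaks with H3K4me3, which the selection removes. Of its 337 peaks, 4 overlapped a solitary member (0.0632%, 0.0172 to 0.162% of members), near Mgst3 (4.45), Slc30a5 (5.61), Dusp1 (4.51) and Khdc3 (6.74). Of clustered peaks 1 of 5522 overlapped Rfx2, and of peaks with H3K4me3 292 of 17494 (1.67%).

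Members were spread over all 19 chromosomes. Their density went from 1.91 per Mb on chromosome 14 to 3.67 per Mb on chromosome 11. As a share of the H3K27ac peaks of a chromosome they went from 17.2% on chromosome 19 to 24.9% on chromosome 1. The chromosome with the highest density (18.6% of its H3K27ac peaks) was not that with the highest share.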

How the data were processed

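The authors aligned reads to mm10 with Bowtie2 and ran MACS2 on each library, with paired-end fragments for Cut&Run and no control library stated. The deposited lists hold the fold enrichment (a ratio), the −log10 q and the summit position for H3K27ac, H3K4me3 and Rfx2, and positions with a deposited score of unstated scale, not used here, for MOF. The RefSeq annotation and sequence are GRCm38, the same build, and 0 peaks ran beyond a chromosome end. Depth per library is not in the lists. Peaks were taken as overlapping when they shared 1 bp, and gaps are edge to edge. Python 3 scripts (numpy, pandas, scipy) computed shares with exact Clopper-Pearson 95% intervals and medians with order-statistic intervals. The class rule was tested on simulated lists, where 0 of 2000 peaks differed from direct comparison. Curated transcripts gave start sites, and the nearest gene is the nearest protein-coding one. Of 238 listed genes, 234 were found by symbol or synonym.

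The members and gene lists were chosen with earlier results of these data known. Peaks named are the 15 with the highest fold enrichment, the 5 widest, the 5 most isolated, those nearest to listed genes within 50 kb (15 over the epidermal lists, up to 3 for each other list), and 3 on each side of the limit. Sequences of 100 bases either side of the summit were to be shown for the first 4 of these 15 with AP-1 letters, of which there was 1, and for 2 without. Other genes were named after their values were seen. H4K16ac, H3K4me1 and the other H3K27ac and H3K4me3 samples were not analysed here. Alternatives changed the isolation distance, the peaks that exclude or count as neighbours, the q threshold, the annotation and the search window.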

Additional observations from a re-analysis of the deposited data

How the results depend on the processing

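The share of peaks that were solitary, those near a start site, intergenic, with AP-1 letters or near H3K4me3, and the medians of fold enrichment and width were recomputed with another isolation distance, with neighbours counted among all H3K27ac peaks, with H3K4me3 or MOF within 1 kb excluding, without MOF, and with the 50% of peaks of highest −log10 q. A value counted as moved when it left the 95% interval of the reported one, and there were no replicates to leave out. The share of H3K27ac peaks that were solitary (21.0%) moved under all of them. By construction it went to 29.4% at 5 kb, 14.3% at 25 kb, 13.3% with all neighbours, 18.3% with the 1 kb margin and 22.4% without MOF. With the highest q, where the peaks counted and their neighbours both change, it was 14.2%. The share near H3K4me3 (44.7%) moved to 46.4%, 42.2%, 12.9%, 37.5% and, with the highest q, 50.6%. With all neighbours counted it fell because H3K27ac peaks with H3K4me3 then exclude. The share with a start site within 1 kb (3.67%) moved to 2.67% with all neighbours, 2.43% with the margin, 3.02% with the highest q, 2.83% with protein-coding transcripts only and 7.40% at 2.5 kb. The intergenic share (44.4%) moved to 46.1% with all neighbours and 47.1% with protein-coding gene bodies only. Median fold enrichment (4.44) moved to 4.63 with all neighbours, 4.52 with the margin and 5.85 with the highest q. Median width (365 bp) moved to 371 bp at 5 kb, 357 bp at 25 kb and 516 bp with the highest q.

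The AP-1 share (11.8%) stayed within its interval under all 6 changes of membership. It moved with the search itself, to 5.15% within 50 bp, 30.7% within 250 bp, 12.8% in the 3136 windows without repeat-masked bases and 9.18% with C or G in the middle, the last chosen after seeing the data. With the highest q, 1288 of 2149 members were also members of the reported set, since removing weak peaks makes others solitary.

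No paired analysis was possible because each mark has 1 list and the study has 1 condition. Absence of an H3K4me3 or MOF peak means only that none was listed.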
